A study of Mus musculus with 6 samples.

Results

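The Nr4a family consists of the nuclear receptor genes Nr4a1, Nr4a2 and Nr4a3, whose proteins are also known as Nur77, Nurr1 and Nor1. Its members were taken by symbol from a table of sorted mouse long-term haematopoietic stem cells (LT-HSC) and are 3 of the 15599 genes with at least 1 read there. The family was chosen by its genotype difference in these data, in that Nr4a1 was known to be higher in the mutant. The values that compare the genotypes in Nr4a1, Nr4a2 and Nr4a3 are therefore a description and carry no test.

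The study compared LT-HSC that lack inositol-trisphosphate 3-kinase B with LT-HSC that have it, 3 libraries per genotype. ItpkB-/- libraries (spelled IPTKB-/- in the sample labels) came from mice with the allele Ms T-less, which was induced with the point mutagen ENU, and WT libraries from their littermates. All mice were C57BL/6 and age-matched, with the age itself not given in the labels, and none was treated. Each library was a pool of 4 mice, from which at least 10000 cells were sorted after lineage depletion as Sca-1 and Kit positive, CD150 positive and negative for CD34, CD48 and Flk2. The ENU allele is present in every cell of the mouse, so the genotypes differ in the stem cells and in their surroundings alike.

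Nr4a receptors are called orphan receptors because no classical hormone ligand is known for them, and their activity follows mostly from how much of the protein is made. In many cells their transcription starts within minutes of a calcium, cyclic AMP or growth factor signal, without new protein synthesis, which makes them immediate early genes. Calcium reaches them through calcineurin, NFAT and MEF2 factors and through kinases that phosphorylate CREB, which binds cyclic AMP response elements (CRE). In mouse blood, Nr4a1 and Nr4a3 act together to restrain the proliferation of stem cells and to suppress myeloid leukaemia, and Nr4a1 is needed for Ly6C-low monocytes. Itpkb converts inositol trisphosphate, which releases calcium from stores, to inositol tetrakisphosphate.

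The promoters of the 3 genes are shown because each holds the same short element, the CRE half-site CGTCA, 4 times. The sequences are RefSeq's on build GRCm38.p6, 5′ to 3′ on the strand of the gene, cut to the stretch from the first to the last half-site with 8 bases on either side. Capitals mark CGTCA, or TGACG where it lies on the other strand. The stretches lie at chr15:101266605-101266818 (plus strand) for Nr4a1, chr2:57124102-57124211 (minus strand) for Nr4a2 and chr4:48045066-48045170 (plus strand) for Nr4a3.
Nr4a1: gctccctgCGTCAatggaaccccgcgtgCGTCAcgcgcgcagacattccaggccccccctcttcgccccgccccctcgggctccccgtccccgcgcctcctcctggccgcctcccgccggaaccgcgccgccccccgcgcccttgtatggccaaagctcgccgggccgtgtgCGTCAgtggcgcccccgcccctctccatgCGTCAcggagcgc
Nr4a2: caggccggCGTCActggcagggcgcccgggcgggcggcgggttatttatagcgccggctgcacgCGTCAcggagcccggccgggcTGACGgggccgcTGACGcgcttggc
Nr4a3: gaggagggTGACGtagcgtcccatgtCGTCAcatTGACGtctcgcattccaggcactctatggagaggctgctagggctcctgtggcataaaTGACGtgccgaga

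Motifs were searched on both strands of each RefSeq promoter window of 300 bases, which ends shortly after the transcript start. At least 1 CGTCA stood in 20.8% of 32817 such windows, and at least 4 in 76 windows of 69 genes, or 0.232%, which include the 3 Nr4a genes. In Nr4a1 all 4 half-sites were part of the longer TGCGTCA, which overlaps CGTCA, and no other window held TGCGTCA 4 times, while 2.11% held it at least 1 time. The Nr4a2 and Nr4a3 windows held no TGCGTCA, and none of the 3 windows held the full palindrome TGACGTCA. The Nr4a2 stretch also holds a match to the MEF2 motif, found in 3.19% of windows, which reads ttatttatag in the printed sequence. The NBRE AAAGGTCA, the element Nr4a proteins themselves bind, the AP-1 motif TGANTCA and the CArG box of serum response factor had no match in these windows, and the NFAT core GGAAA had 1, in Nr4a2. CGTCA contains a CpG, and the windows are rich in G and C, at 72.3% for Nr4a1, 81.7% for Nr4a2 and 64.7% for Nr4a3, against a median of 52.7% over all windows. A match describes letters in a window and not a bound site.

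Library depth and purity bear on every value below. The deposited values are normalized CPM, counts per library total (CPM) after the authors' scaling, from which 4777870 to 7470329 reads were recovered in ItpkB-/- libraries and 4024203 to 6597505 in WT libraries, so that 1 read was worth 0.131 to 0.249 normalized CPM. Itpkb itself measured 10.2, 13.99 and 18.2 normalized CPM in ItpkB-/- libraries, against 22.1, 23.6 and 25.1 in WT libraries, all ItpkB-/- values below all WT values, as in 11.3% of tested genes. Its log2 difference of -0.73 (SE 0.24) gave an adjusted p of 0.172 with limma, above the limit of 0.15, and of 0.0541 with the replicate number as a block. A transcript with a point mutation need not be lost. An annotated pseudogene, Gm5069, overlaps the start of Itpkb on the opposite strand, so that reads of the 2 cannot be told apart there. The pseudogene ends at 180330550 on chromosome 1 and Itpkb runs from 180330485 to 180424802, so the shared stretch is a small part of the gene. Of the genes that the gate selects as positive, Kit was at 615.2 to 879.3 in ItpkB-/- and 834 to 910.9 in WT libraries, Ly6a, which encodes Sca-1, at 108.3 to 151.5 in ItpkB-/- and 132.7 to 161.6 in WT libraries, and Slamf1, which encodes CD150, at 42.6 to 59.2 in ItpkB-/- and 46.8 to 56.6 in WT libraries. Transcripts of the proteins selected as negative were present in every library. Cd34 was at 203.8 to 220.2 in ItpkB-/- and 172.0 to 203.6 in WT libraries. Cd48 was at 33.3, 30.8 and 7.08 in ItpkB-/- libraries, against 8.95, 13.6 and 4.65 in WT libraries (log2 difference 1.14, adjusted p = 0.328), and Flt3, which encodes Flk2, at 25.9, 37.9 and 22.9 in ItpkB-/- libraries, against 7.21, 31.5 and 15.3 in WT libraries (0.84, adjusted p = 0.364). The 10 granulocyte markers summed to 18476 normalized CPM in ItpkB-/- replicate 2, which stands apart, and to 947.2 to 6603 in the other ItpkB-/- libraries and 732.7 to 3791 in WT libraries.

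Nr4a1, on chromosome 15 (101254269 to 101274795, plus strand, GENCODE M21 on mm10), was higher in each ItpkB-/- library than in any WT library. Its level was 15.0, 15.8 and 13.6 normalized CPM in ItpkB-/- replicates 1, 2 and 3, from 69, 102 and 104 reads. In WT replicates 1, 2 and 3 it was at 7.46, 3.44 and 4.10, from 30, 23 and 22 reads. The lowest ItpkB-/- value was thus well above the highest WT value, and WT replicate 1 stood above the other two WT libraries. Its means were 14.8 ± 1.12 in ItpkB-/- and 5.00 ± 2.16 in WT cells (SD, n = 3 each), a ratio of 2.97. On the scale of log2(value + 1) this was a difference of 1.46 (SE 0.30), and the spread between replicates on that scale was 0.10 in ItpkB-/- and 0.49 in WT libraries (SD). Counting error alone, as an exact 95% Poisson interval, spanned 11.1 to 16.5 for the lowest ItpkB-/- library and 5.03 to 10.7 for the highest WT library. These intervals do not overlap, and they cover counting error only, since amplified reads without molecular identifiers are not independent molecules. Separate libraries like this occurred in 10.0% of the 12008 genes tested in the direction of Nr4a1, a share given as background. In sorted bulk cells, a higher level in every cell and a larger share of cells that make the transcript cannot be told apart.

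Nr4a2, on chromosome 2 (57106830 to 57124003, minus strand), overlapped between the genotypes. ItpkB-/- replicates 1, 2 and 3 held 12.2, 6.84 and 8.52 normalized CPM, from 56, 44 and 65 reads, and WT replicates 1, 2 and 3 held 3.48, 6.87 and 8.38, from 14, 46 and 45 reads. ItpkB-/- replicate 1 was the highest and WT replicate 1 the lowest, while the other 4 libraries lay together. Means were 9.18 ± 2.74 in ItpkB-/- and 6.24 ± 2.51 in WT cells (SD, n = 3 each), with a log2 difference of 0.52 (SE 0.35). That difference was 0.21 without WT replicate 1 and 0.32 without ItpkB-/- replicate 1, so the libraries numbered 1 decide most of it. The position of WT replicate 1 was not the same in both genes, being the highest WT library in Nr4a1 and the lowest in Nr4a2.

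Nr4a3, on chromosome 4 (48045153 to 48086447, plus strand), was at the limit of detection. Its 6 libraries held 2, 4 and 4 reads in ItpkB-/- and 3, 1 and 1 reads in WT, which corresponds to 0.436, 0.622 and 0.524 (ItpkB-/-) against 0.746, 0.149 and 0.186 (WT) normalized CPM. The 3 ItpkB-/- libraries had 10 reads together (exact 95% Poisson interval 4.80 to 18.4) and the 3 WT libraries 5 (1.62 to 11.7). With 3 reads taken as the floor of a library, a genotype difference in Nr4a3 was not detectable at this depth, and no fold is given. It was the member that failed the filter of at least 1 normalized CPM in at least 3 libraries, which the other two passed. No other annotated gene overlaps any of the 3 Nr4a genes, so reads of an overlapping or antisense gene, which this unstranded kit would not separate, have no annotated source there.

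**Figure D1:**
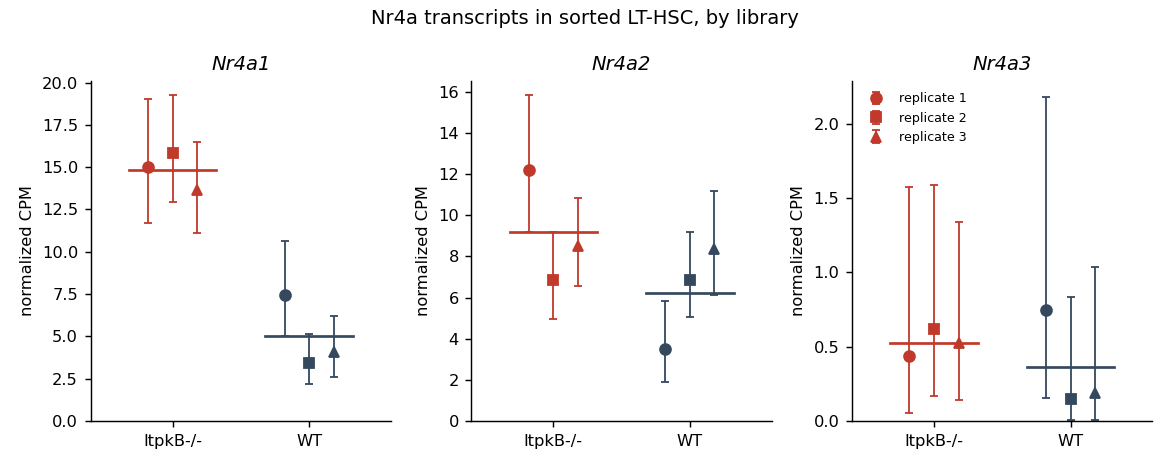
Normalized CPM (y axis) of Nr4a1, Nr4a2 and Nr4a3 in each library of ItpkB-/- (left, red) and WT (right, dark blue) LT-HSC; bars are exact 95% Poisson intervals of the reads, horizontal lines are group means, and each panel has its own scale. The Nr4a1 libraries of the genotypes are apart, from 13.6 to 15.8 in ItpkB-/- and 3.44 to 7.46 in WT, whereas those of Nr4a2 and Nr4a3 overlap.

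Same-numbered libraries were also compared for the 2 measured members. Across all tested genes, libraries with the same number deviated together from their genotype means, and were treated as pairs on that ground although no label says what the number stands for. For Nr4a1 the log2 difference, ItpkB-/- minus WT, was 0.92, 1.92 and 1.52 in pairs 1, 2 and 3. For Nr4a2 it was 1.56, -0.01 and 0.02. Nr4a1 was higher in the ItpkB-/- library of every pair, which any pairing would give because its libraries do not overlap between genotypes. Nr4a2 had a difference only in pair 1, the pair in which Nr4a1 differed least.

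**Figure D2:**
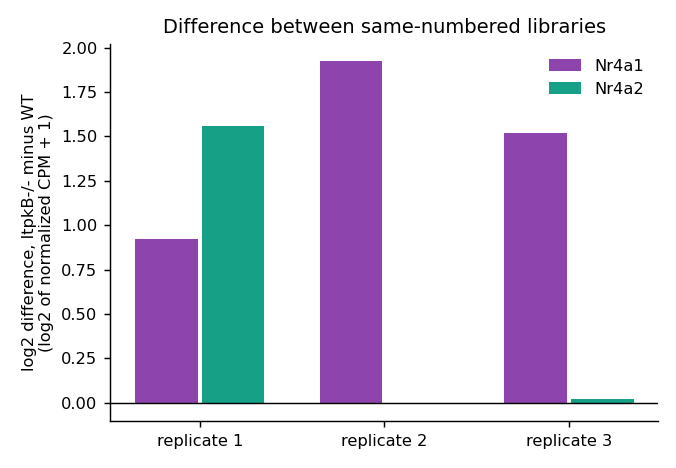
Log2 difference, ItpkB-/- minus WT, on the scale of log2(normalized CPM + 1) (y axis), between libraries with the same replicate number (x axis), for Nr4a1 (purple) and Nr4a2 (green). Nr4a1 is positive in all 3 pairs (0.92 to 1.92), which follows from its separate libraries under any pairing, and Nr4a2 is near 0 in pairs 2 and 3.

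The makeup of the family differed between libraries. Nr4a1 gave 54.3%, 68.0% and 60.1% of the reads of the 3 genes in ItpkB-/- libraries, against 63.8%, 32.9% and 32.4% in WT libraries. Nr4a2 was thus the main member in WT replicates 2 and 3, and Nr4a1 in WT replicate 1 and in all ItpkB-/- libraries, so the shares overlap between genotypes. The summed level of the family did not overlap, at 22.7 to 27.7 normalized CPM in ItpkB-/- and 10.5 to 12.7 in WT libraries. The genotype difference of the sum is mostly that of Nr4a1, and the sum carries no more evidence than that gene.

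Among nuclear receptors, levels were compared per kilobase of exon, with the summed exon length of each gene in GENCODE M21. Nr4a1 averaged 4.23 normalized CPM per kb in ItpkB-/- and 1.42 in WT cells, and Nr4a2 averaged 2.26 in ItpkB-/- and 1.54 in WT cells. Of 48 receptor genes listed, 26 were tested, and Nr4a1 took place 10 by mean level in ItpkB-/- cells and place 21 in WT cells, with Nr4a2 at place 14 in ItpkB-/- and place 20 in WT cells. In ItpkB-/- cells the neighbours of Nr4a1 in that order, Thra (4.44 to 6.45 per kb over libraries) and Nr2c1 (3.40 to 4.04), overlapped its range of 3.88 to 4.52. In WT cells the ranges of Nr4a1 (0.98 to 2.13) and Nr4a2 (0.86 to 2.06) overlapped each other and that of Esrra (0.78 to 1.70). The highest receptors in both genotypes were Nr3c1, the glucocorticoid receptor, Nr2c2 and Nr1h2, a receptor of oxysterols, at 13.0 to 16.4 per kb on average.

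**Figure D3:**
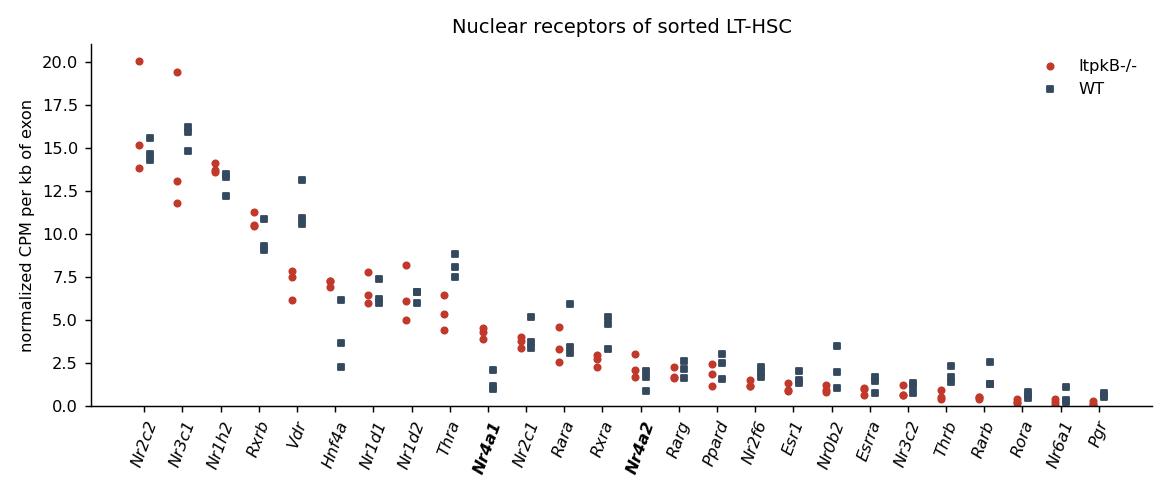
Normalized CPM per kilobase of exon (y axis) of the 26 tested nuclear receptor genes (x axis, ordered by the ItpkB-/- mean), with each ItpkB-/- library as a red circle and each WT library as a dark blue square. Nr4a1 sits at 3.88 to 4.52 in ItpkB-/- and 0.98 to 2.13 in WT libraries, at place 10 by the ItpkB-/- mean and place 21 by the WT mean. Genes such as Vdr and Thra lie lower in ItpkB-/-.

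Other nuclear receptors mostly had the opposite sign. Of 24 tested, 4 fell in ItpkB-/- cells and none rose (limma, adjusted p of at most 0.15, and likewise with edgeR). This is 16.7%, against 5.50% of all genes tested with limma, 3.24% lower and 2.27% higher, and 6.02% with edgeR, 3.58% lower and 2.45% higher. The list was chosen with earlier results of these data known, so its share carries no test. At an unadjusted p under 0.05 there were 9 of the 24, with no share over all genes to set beside that count. Their median log2 difference was -0.40, against 0.00 over all genes, and 5 of the 24 were positive. Thrb, a thyroid hormone receptor, measured 6.75, 3.73 and 2.88 normalized CPM in ItpkB-/- libraries, against 10.4, 12.7 and 17.1 in WT libraries (log2 difference -1.44, SE 0.33, adjusted p = 0.0623). Rarb, a retinoic acid receptor whose gene is itself induced by retinoic acid, was at 2.83, 2.33 and 2.88 in ItpkB-/- libraries, against 13.4, 6.87 and 6.89 in WT libraries (-1.39, SE 0.34, adjusted p = 0.0727). Pgr, the progesterone receptor (-1.50, adjusted p = 0.0899), and Vdr, the vitamin D receptor (-0.68, adjusted p = 0.0792), fell as well. Set in order of log2 difference, Nr4a1 was the first of the 26 receptors and Nr4a2 the third, with Hnf4a between them at 0.90 (adjusted p = 0.173; 0.0322 with the replicate block). The family was chosen by this difference in Nr4a1, so a high place was to be found and the order carries no test. With the replicate block, which called 18.1% of all genes (9.15% higher and 8.97% lower), 1 of the 24 rose and 8 fell. Without ItpkB-/- replicate 2 the count of called receptors was 0, without WT replicates 1, 2 and 3 it was 1, 2 and 0, and the number of genes called over the whole table fell in these fits too.

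Genes whose libraries followed the course of Nr4a1 most closely were sought among 11327 tested genes, by the root mean square difference of log2(value + 1) profiles over the 6 libraries, each centred on its mean. The 5 closest were H2-Ab1, an MHC class II chain (0.204), Slc1a4, a neutral amino acid transporter (0.225), Col18a1, a collagen chain of basement membranes (0.239), Il10ra, the ligand-binding chain of the interleukin-10 receptor (0.251), and Tnfrsf14, the receptor HVEM (0.251), where the median gene lay at 0.826. H2-Ab1 measured 79.9, 79.4 and 68.4 normalized CPM in ItpkB-/- libraries, against 36.1, 27.2 and 19.5 in WT libraries, so that it shared with Nr4a1 both the narrow mutant group and the WT replicate 1 above the rest. Slc1a4 was at 13.1, 16.5 and 15.3 in ItpkB-/- libraries, against 8.95, 5.23 and 5.77 in WT libraries. No immediate early gene of the list below was among these 5.

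For Nr4a2 the 5 closest profiles were those of Sirt5, a mitochondrial deacylase (0.0549), Rad9b (0.0948), Fam83d (0.105), Anks6 (0.107) and Cdkn3, a phosphatase of cyclin-dependent kinases (0.158). Sirt5 measured 13.3, 7.15 and 8.52 normalized CPM in ItpkB-/- libraries, against 3.73, 6.58 and 8.56 in WT libraries, nearly the values of Nr4a2. A profile with little change is easily matched, and 80 genes lay within 0.25 of Nr4a2 against 3 of Nr4a1. Nr4a1 and Nr4a2 were 0.789 apart. Closeness over 6 libraries was used to pick these genes, so it carries no test.

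**Figure D4:**
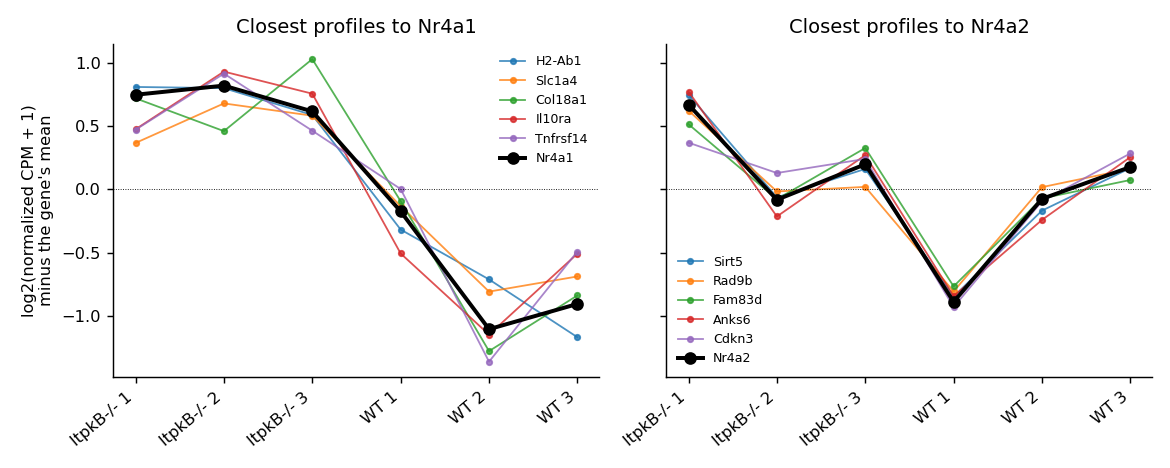
Log2(normalized CPM + 1) minus the gene's mean (y axis) in the 6 libraries (x axis, ItpkB-/- first) for Nr4a1 (left, black) and Nr4a2 (right, black) with the 5 genes of closest profile to each. The Nr4a1 course is high in all ItpkB-/- libraries and lowest in WT 2 and WT 3, and that of Nr4a2 is set by a high ItpkB-/- 1 and a low WT 1.

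Signals reach the Nr4a genes through calcineurin, NFAT, MEF2, class II histone deacetylases, CREB and its coactivators, and the MAP kinases that act on serum response factor. Of 41 tested genes of this input list 2 fell in ItpkB-/- cells and none rose (limma and edgeR), or 4.88% against 5.50% of all genes. Unadjusted, 7 passed 0.05, with no share over all genes to set beside that count. The list's median log2 difference was -0.15, with 13 positive. Nfatc2, a calcium-dependent transcription factor, measured 50.8, 40.9 and 54.5 normalized CPM in ItpkB-/- libraries, against 104.9, 78.5 and 88.2 in WT libraries (log2 difference -0.88, SE 0.17, adjusted p = 0.0330). Hdac9, a deacetylase that represses MEF2 targets, was at 8.71, 6.37 and 7.99 in ItpkB-/- libraries, against 16.7, 18.7 and 19.4 in WT libraries (-1.15, SE 0.24, adjusted p = 0.0432). The libraries of the genotypes were apart in both genes, in the direction opposite to Nr4a1. This was so in 9 of the 41 inputs and in 11.3% of all genes tested. In the direction of Nr4a1, 2 of the 41 were apart, against 10.0% of all genes. These shares carry no test. Rps6ka3, a kinase that phosphorylates CREB, was at 126.5, 108.3 and 100.4 in ItpkB-/- libraries, against 97.2, 78.5 and 71.9 in WT libraries (0.44, adjusted p = 0.206; 0.0287 with the replicate block). Creb1 itself had a log2 difference of -0.09 (adjusted p = 0.860), and Rcan1, a calcineurin target gene often used to read its activity, of -0.20 (adjusted p = 0.790). With the block 1 of the 41 rose and 5 fell, where 9.15% of all genes rose and 8.97% fell. Without WT replicate 3 none of the 41 was called, in a fit that called 74 of all 12008 genes in place of 661.

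Immediate early genes, the class to which the Nr4a genes belong, did not share the course of Nr4a1 as a list. Of 37 tested, 3 rose and 1 fell (limma and edgeR), or 10.8% against 5.50% of all genes. This list too was chosen with earlier results of these data known, so the share carries no test. Unadjusted, 13 passed 0.05, with no share over all genes to set beside that count. The list's median log2 difference was -0.13, with 16 positive. Cd69, an early activation antigen of leukocytes, measured 10.2, 10.3 and 7.60 normalized CPM in ItpkB-/- libraries, against 1.74, 2.39 and 2.05 in WT libraries (log2 difference 1.75, SE 0.30, adjusted p = 0.0224). Socs3, an inhibitor of cytokine receptor signalling, was at 24.2, 12.3 and 23.7 in ItpkB-/- libraries, against 7.71, 3.59 and 4.47 in WT libraries (1.75, SE 0.34, adjusted p = 0.0358). Per1, a clock gene with CRE-driven induction, rose by 0.61 (adjusted p = 0.0791).

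The one that fell was Jun, an AP-1 subunit, at 124.6, 98.2 and 104.5 in ItpkB-/- libraries, against 245.4, 157.1 and 183.4 in WT libraries (-0.82, SE 0.17, adjusted p = 0.0452). Fos had a log2 difference of -0.93 (adjusted p = 0.377), Egr1 of -0.57 (0.296) and Dusp1, a MAP kinase phosphatase, of -0.69 (0.293), values that did not pass with limma. Those 3 passed as lower with the replicate block, at adjusted p = 0.0512, 0.0301 and 0.0110. In all, the block called 5 immediate early genes as higher and 10 as lower, where it called 9.15% of all genes higher and 8.97% lower. The count of called immediate early genes was 8 without ItpkB-/- replicate 1 and 1, Cd69, without WT replicate 3. Over the whole table these fits called 837 and 74 of 12008 genes, against 661 in the main fit. These named genes other than Cd69, Socs3, Per1 and Jun were chosen after their values were seen.

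Proteins that Nr4a receptors pair with or are regulated by include the retinoid X receptors, partners of Nr4a1 and Nr4a2 on DNA, and the corepressor and coactivator complexes of nuclear receptors. Of 18 tested genes of this list none passed with limma or edgeR, where 5.50% and 6.02% of all genes did. An unadjusted limma p below 0.05 was found for 2, with no share over all genes to set beside that count. The median log2 difference of the list was 0.04. Rxra measured 15.0, 12.6 and 16.4 normalized CPM in ItpkB-/- libraries, against 28.3, 18.1 and 26.2 in WT libraries, which did not pass (-0.67, adjusted p = 0.201; 0.0675 with the replicate block). Rxrb, the higher of these 2 receptors per kb, differed by 0.14 (adjusted p = 0.735). Prkdc, a DNA-dependent kinase reported to bind Nr4a proteins, had a log2 difference of 0.37 (adjusted p = 0.266; 0.0938 with the block). Ncoa1, the coactivator SRC-1, had one of -0.25 (adjusted p = 0.462; 0.254 with the block). With the block 1 gene of the list rose, Prkdc, and 1 fell, Rxra, where 9.15% of all genes rose and 8.97% fell. None was called in any fit that left out 1 library.

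Genes tied to Nr4a receptors in blood cells were a mixed list of proposed targets, exhaustion and regulatory genes of T cells, and cell cycle genes. Of 17 tested, 3 rose and 3 fell (limma and edgeR), or 35.3% against 5.50% of all genes, and the median log2 difference was 0.05. The list was chosen with earlier results of these data known, so that share is a description and carries no test. Cdk6, a kinase of the G1 phase, measured 625.3, 464.9 and 519 normalized CPM in ItpkB-/- libraries, against 244.2, 248.2 and 245.5 in WT libraries (1.11, SE 0.13, adjusted p = 0.00325). Cdkn1a, the cell cycle inhibitor p21, rose by 1.23 (SE 0.37, adjusted p = 0.135), and Entpd1, the ectonucleotidase CD39, by 0.77 (SE 0.20, adjusted p = 0.0995). Tox, a transcription factor that Nr4a proteins promote in exhausted T cells, was at 16.3, 8.86 and 22.1 in ItpkB-/- libraries, against 42.0, 33.8 and 49.5 in WT libraries (-1.42, SE 0.30, adjusted p = 0.0432). Ccnd2, a D-type cyclin, fell by 0.48 (SE 0.13, adjusted p = 0.116), and Jun stands in this list too. Cebpa, a myeloid transcription factor whose gene Nr4a1 and Nr4a3 activate in mouse stem cells, had a log2 difference of 0.05 (adjusted p = 0.976; -0.64 without ItpkB-/- replicate 2 and -0.39 without WT replicate 3), with 2.40, 13.2 and 2.36 in ItpkB-/- libraries, against 5.47, 6.87 and 1.86 in WT libraries. Runx1 differed by -0.03 (adjusted p = 0.960). The 6 calls became 3 without ItpkB-/- replicate 2 or without WT replicate 2, and 1, that of Cdk6, without WT replicate 3. Over the whole table these fits called 266, 297 and 74 of 12008 genes, against 661 in the main fit. Creb1, Rcan1, Rxrb, Cebpa, Runx1 and Hnf4a were likewise named after their values were seen.

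**Figure D5:**
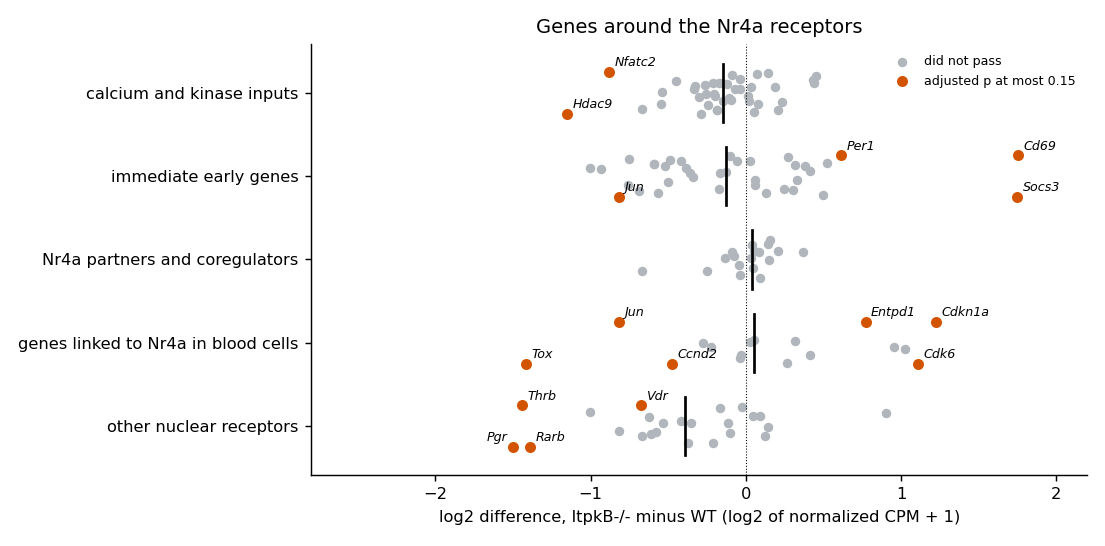
Log2 difference, ItpkB-/- minus WT, on the scale of log2(normalized CPM + 1) (x axis) of each tested gene in 5 lists around the Nr4a receptors (rows; vertical position within a row has no meaning). Orange points passed limma at an adjusted p of at most 0.15, grey points did not, and black bars are list medians; the median of the other nuclear receptors lies at -0.40, the lowest of the 5.

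Markers of other cell types were set beside Nr4a1. The granulocyte sum was 6603, 18476 and 947.2 normalized CPM in ItpkB-/- replicates 1, 2 and 3, while Nr4a1 was at 15.0, 15.8 and 13.6. In WT replicates 1, 2 and 3 that sum was 3791, 2681 and 732.7, beside 7.46, 3.44 and 4.10 for Nr4a1. Within ItpkB-/- libraries the granulocyte sum and Nr4a1 had the same order over replicates, highest in replicate 2 and lowest in replicate 3. Within WT libraries both were highest in replicate 1, but the sum was lowest in replicate 3 and Nr4a1 in replicate 2. The exact 95% Poisson intervals of Nr4a1 overlapped among ItpkB-/- replicates 1, 2 and 3 (11.7 to 19.0, 12.9 to 19.2 and 11.1 to 16.5). Those of WT replicates 2 and 3 overlapped too (2.18 to 5.16 and 2.57 to 6.20). The order of Nr4a1 among these libraries is thus not resolved by its reads. The single markers differed in order. In WT libraries Mpo (263.3, 817.1 and 97.7), Elane, Prtn3 and Ctsg were highest in replicate 2, and the other granulocyte markers in replicate 1. In ItpkB-/- libraries Ngp and Lcn2 were highest in replicate 1, and the others in replicate 2. Without ItpkB-/- replicate 2 the log2 difference of Nr4a1 was 1.41. The part of granulocyte RNA in the Nr4a1 values was not tested.

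The 10 monocyte and macrophage genes summed to 328.2 to 1069 in ItpkB-/- libraries and 439.9 to 684.1 in WT libraries, ranges that overlap. The largest part of each sum was Lyz2. Lyz2 (log2 difference -0.17) and Emr1 (-0.92) were lower in ItpkB-/- libraries. Csf1r, Ly6c2, Ccr2, Cd14, Cd68, Itgam and Fcgr3 were higher, by 0.62 to 1.27. None of these genes was called. Cx3cr1, a defining gene of Ly6C-low monocytes, was at 0 to 1.55 normalized CPM in ItpkB-/- and 0 to 0.995 in WT libraries. The 8 B cell genes summed to 31.8 to 36.8 in ItpkB-/- and 30.6 to 38.8 in WT libraries, nearly all of it Cd79b. Cd3g and Cd8a had no read in any library, although the 8 T and NK cell genes summed to 99.3 to 290.7 in ItpkB-/- and 72.6 to 118.5 in WT libraries, mostly Nkg7. The 7 erythroid genes summed to 98.9 to 547.4 in ItpkB-/- and 130.5 to 335.5 in WT libraries, the 6 mast cell and basophil genes to 8.91 to 27.5 in ItpkB-/- and 10.2 to 20.1 in WT libraries, and the 7 genes of endothelium to 284.8 to 497.0 in ItpkB-/- and 364.2 to 437.2 in WT libraries. The range of each of these sums overlaps between the genotypes. Of the marker genes, Epor, the erythropoietin receptor (log2 difference 0.89, adjusted p = 0.123), and Fcer1a, a chain of the IgE receptor (1.64, adjusted p = 0.0595), rose and Emcn, endomucin (-1.46, adjusted p = 0.00824), fell. The part of these cells in the Nr4a1 values was not tested.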

How the data were processed

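RNA was measured in 6 libraries of sorted LT-HSC, 3 per genotype. The NuGEN Ovation RNA-Seq System V2, which does not mark strand, amplified an estimated 1 to 5 ng of RNA per the labels' protocols. Per the submitters' processing notes, CASAVA 1.8.2, cutadapt, TopHat2 2.0.8b (build mm10), Partek and edgeR were used. The design text names other TopHat and Partek versions, and the sources used here do not settle which were used. The authors deposited a signal per gene on the CPM scale, gene counts divided by 1 factor per library. All values (100%) lay within 0.01 of a whole number of reads, so reads were recovered. Depth was 4024203 to 7470329 reads per library, and 3 reads were taken as the floor.

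Genes with at least 1 normalized CPM in at least 3 libraries (12008) were tested with limma 3.58.1 (R 4.3.3, mean-variance trend) on log2(value + 1), Benjamini-Hochberg adjusted over all of them and called at 0.15, the limit of the series design text, where 5.50% passed. The pseudocount of 1 understates changes of low genes. Alternatives were a pseudocount of 0.5, no filter, DESeq2 1.42.0 size factors, edgeR 4.0.16 quasi-likelihood on recovered reads, the replicate number as a block, and each library left out. Both tests were checked on simulated counts. Same-numbered libraries deviated together (correlations across genes 0.296, 0.268 and 0.284) and were taken as pairs, and the fit without the block was kept as the main one. No 2 libraries of 1 genotype repeated each other (chi-square per degree of freedom at least 5.87).

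Members and lists were chosen with earlier results of these data known. Genes named were Itpkb, the Nr4a genes, all called members of each list (or its 3 smallest p where fewer than 3 passed) and the 5 closest profiles; others are marked where named. The symbols of all listed genes but 1 stood in the table as written, and that 1 was matched through an older symbol. Some listed genes are not reported here and were left out of the list counts, levels and figures, but not of the fits over all genes.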

Additional observations from a re-analysis of the deposited data

How the results depend on the processing

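The log2 difference of Nr4a1 ran from 1.41 to 1.59 over the settings with all libraries or without 1 ItpkB-/- library, and over all fits that left out 1 library from 1.27 to 1.73. That of Nr4a2 ran from 0.21 to 0.74 without 1 library, and from 0.52 to 0.56 in the other fits. No difference was computed for Nr4a3, which failed the filter.

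With the replicate block 2176 genes (18.1%) were called in place of 661 (5.50%). Called members became 6 for the inputs, 15 for the immediate early genes, 2 for the partners and coregulators and 9 for the other nuclear receptors. The fit without the pairing called 2, 4, 0 and 4 of them. Leaving out 1 library gave 74 to 837 genes over the whole table, 0 to 3 inputs, 1 to 8 immediate early genes, 0 partners in every such fit, 1 to 7 genes tied to Nr4a in blood cells and 0 to 6 other nuclear receptors. The fit without WT replicate 3 gave the lowest count in all of these, shared with other fits for the partners and the other nuclear receptors. Of 15 distinct genes called over the 5 lists, 15 were called with the block and 15 with edgeR, and 2, Cd69 and Cdk6, in each fit that left out 1 library. Cebpa changed sign in 2 such fits, at -0.64 without ItpkB-/- replicate 2 and -0.39 without WT replicate 3. Creb1 changed sign in 2, at 0.07 and 0.01 without ItpkB-/- replicate 2 and WT replicate 1, and so did Runx1, at 0.14 and 0.05. None of those 3 genes passed with limma or the block. Itpkb, Nr4a1, Nr4a2, the list members named by rule and the closest profiles kept their sign under the alternatives run. Receptors and markers named only for their levels are not covered by this statement. At 3 libraries per genotype and 30 or fewer Nr4a1 reads per WT library, counting error limits how finely levels of this family can be ordered.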
